A study of Mus musculus with 5 samples.

Results

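Transcripts of 10 genes were followed: Cdkn1a, Btg2, Ccng1, Gadd45a, Gadd45b, Gadd45g, Mdm2, Trp53inp1, Sesn2 and Phlda3, all known as targets of the transcription factor p53 or as members of the GADD45 stress family. They were chosen by their symbols, with earlier results of these data known. All 10 were found among the 21590 genes of each of the 4 comparison tables. RNA was sequenced from whole lungs of mice on a mixed 129S6, C57BL/6 and BALB/c background, either wild type (WT) or Cldn4 knockout (KO), the knockout lacking the tight junction protein claudin-4. The 5 groups were ventilated knockouts whose injury exceeded that of wild type (KO_VILIhigh), ventilated knockouts with injury like that of wild type (KO_VILIlow), ventilated wild type (WT_VILI), unventilated knockout (KO_noVILI) and unventilated wild type (WT_noVILI). Ventilation was at a pressure of 40 cmH2O for 2 h, a setting that injures the lung by overstretch (ventilator-induced lung injury, VILI). The study's design text gives 2 libraries per group, the tables hold no value per library, and the knockouts were divided into both injury classes by the outcome of the ventilation. Where wild type lungs serve as the comparison group they carry no deletion, and no transgene or Cre driver is named in the labels.

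The protein p53 is held at a low level by the ubiquitin ligase Mdm2, is stabilised by DNA damage and other stress, and then activates genes that stop the cell cycle, repair DNA or promote cell death. Mdm2 is itself a target, which closes a feedback loop. Several targets also respond to signals that do not pass through p53. Cdkn1a and the GADD45 genes are known to respond to growth factor, cytokine and glucocorticoid signals, Btg2 behaves as an immediate early gene in many cells, and Sesn2 is also a target of the stress factor ATF4.

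RefSeq promoter windows of GRCm38.p6, from 250 bases before to 50 bases after a transcription start, were matched to 9 of the 10 genes by Entrez identifier and gave 10 windows, since Cdkn1a has 2. No window was available for Trp53inp1, which was not searched. Each window was searched on both strands for the p53 decamer, the consensus unit of a p53 response element, and for TGACGTCA, the cyclic AMP response element (CRE). The windows of 4 genes, Cdkn1a, Gadd45a, Mdm2 and Ccng1, held the decamer, against 8.36 percent of all 32851 windows. The CRE was found in the Btg2 window, against 1.79 percent of all windows. The windows with a match are printed here 5′ to 3′ along the gene, with the matched letters in capitals, because these genes differed in their response to ventilation. Windows are Cdkn1a at chr17:29090729-29091028 on the plus strand, Gadd45a at chr6:67037358-67037657, Mdm2 at chr10:117710709-117711008, Ccng1 at chr11:40755237-40755536 and Btg2 at chr1:134079106-134079405, the last 4 on the minus strand.
Cdkn1a: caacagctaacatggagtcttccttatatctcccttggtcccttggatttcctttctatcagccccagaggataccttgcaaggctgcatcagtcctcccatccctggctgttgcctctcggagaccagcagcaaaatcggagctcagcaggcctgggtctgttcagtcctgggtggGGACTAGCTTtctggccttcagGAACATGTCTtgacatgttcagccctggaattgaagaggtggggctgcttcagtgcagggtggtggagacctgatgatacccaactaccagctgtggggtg
Gadd45a: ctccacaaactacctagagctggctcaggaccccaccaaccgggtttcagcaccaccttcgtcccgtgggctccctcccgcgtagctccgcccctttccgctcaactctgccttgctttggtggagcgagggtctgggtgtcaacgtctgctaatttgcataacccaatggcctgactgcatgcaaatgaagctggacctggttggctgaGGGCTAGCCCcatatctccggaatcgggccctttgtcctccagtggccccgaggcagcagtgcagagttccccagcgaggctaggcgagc
Mdm2: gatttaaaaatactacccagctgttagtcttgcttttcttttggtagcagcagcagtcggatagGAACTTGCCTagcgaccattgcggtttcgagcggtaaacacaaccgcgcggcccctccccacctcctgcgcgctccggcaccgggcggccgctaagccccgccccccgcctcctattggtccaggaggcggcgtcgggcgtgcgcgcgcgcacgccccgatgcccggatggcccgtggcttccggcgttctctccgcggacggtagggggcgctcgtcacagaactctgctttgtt
Ccng1: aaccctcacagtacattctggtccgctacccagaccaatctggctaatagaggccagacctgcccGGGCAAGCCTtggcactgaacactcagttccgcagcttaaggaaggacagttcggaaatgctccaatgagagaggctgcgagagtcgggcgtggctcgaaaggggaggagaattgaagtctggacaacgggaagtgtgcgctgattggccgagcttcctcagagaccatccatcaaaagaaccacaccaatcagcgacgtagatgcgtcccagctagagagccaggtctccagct
Btg2: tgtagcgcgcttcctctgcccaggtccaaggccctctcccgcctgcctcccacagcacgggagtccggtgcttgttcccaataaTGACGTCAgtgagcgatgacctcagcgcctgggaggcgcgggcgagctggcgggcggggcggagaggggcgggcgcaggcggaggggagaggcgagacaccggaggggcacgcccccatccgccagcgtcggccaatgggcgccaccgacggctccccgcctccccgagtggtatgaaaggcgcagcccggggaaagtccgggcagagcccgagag

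The Cdkn1a window shown belongs to the upstream of its 2 annotated starts, 2790 bases before the other. It held 2 decamers with 12 bases between them, GGACTAGCTT and GAACATGTCT, while the window of the downstream start held none. Only exact matches to RRRCWWGYYY (R is A or G, W is A or T, Y is C or T) were counted. The bases right after GAACATGTCT, tgacatgttc, miss that pattern only at their first letter, so near matches beside a decamer are left out. Gadd45a had GGGCTAGCCC, Mdm2 GAACTTGCCT and Ccng1 GGGCAAGCCT. The AP-1 site TGANTCA, the ATF4 composite site TGATGNAAT and the glucocorticoid response element were in none of the 10 windows, against 7.81, 0.965 and 0.475 percent of all windows. A match is a string of letters and says nothing of binding.

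Some facts of the whole series bear on every value below. Levels were rebuilt in CPM, read counts scaled to a common library size, from the fold changes and mean abundances of the authors' deposited tables, so they have no replicate spread and depth is unknown. Cldn4 stood at 0.122, 0.0211 and 0.135 CPM in KO_VILIhigh, KO_VILIlow and KO_noVILI, against 140 and 8.98 CPM in WT_VILI and WT_noVILI. Xist, which marks the inactive X chromosome of females, was at 2.64 to 6.13 CPM in the 3 ventilated groups and at 504 and 890 CPM in the unventilated KO_noVILI and WT_noVILI, and the Y-linked Ddx3y showed the opposite. Ventilation and sex therefore cannot be told apart in any comparison of ventilated with unventilated lungs. The 8 alveolar type 2 markers summed to between 20357 and 22234 CPM in the 5 groups, in keeping with the labelled tissue. In whole lung RNA, fewer cells of a type and less RNA per cell cannot be told apart.

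**Figure D1:**
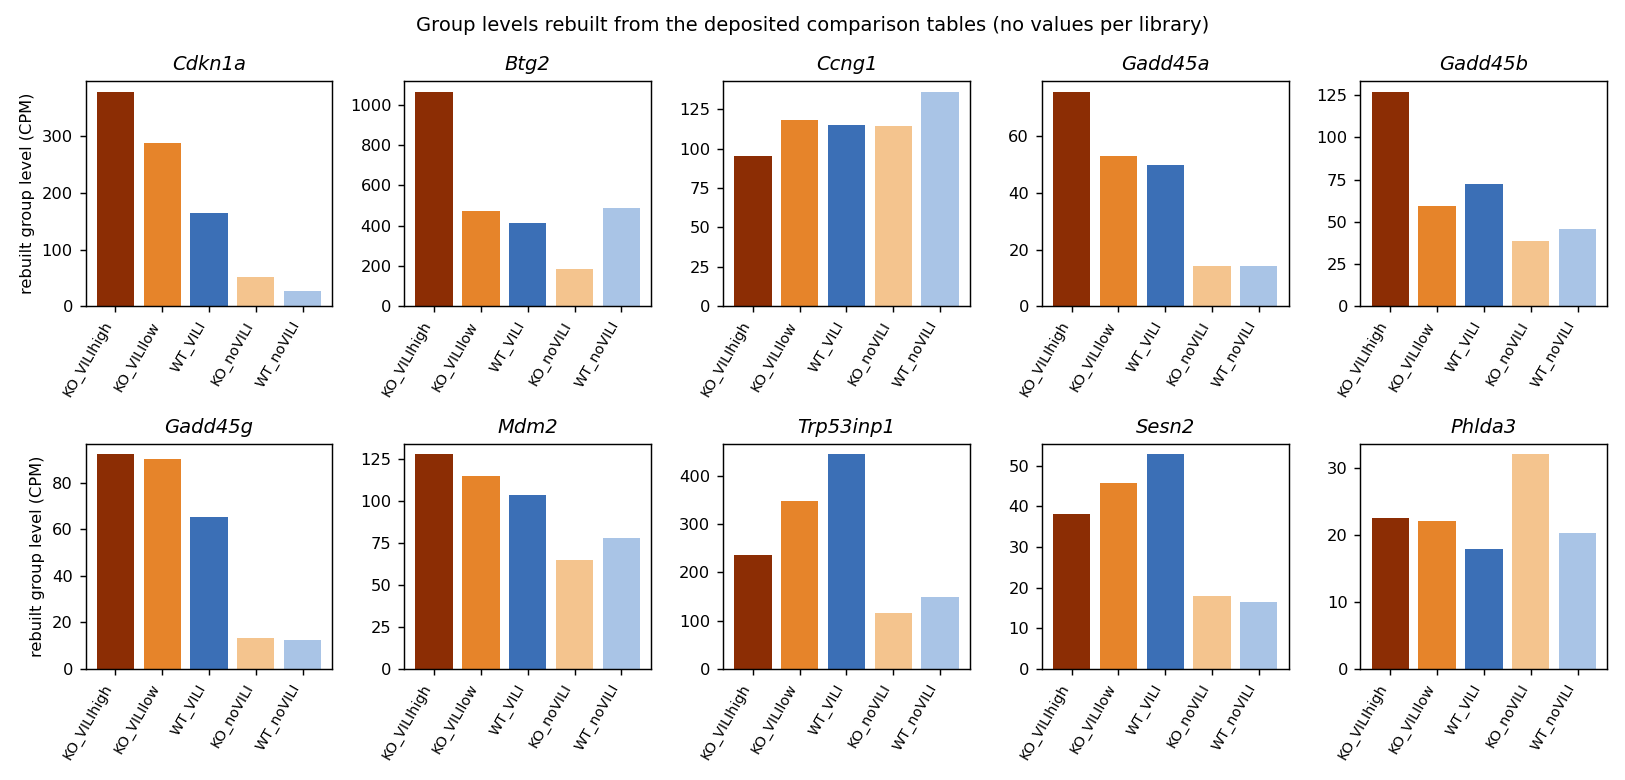
Rebuilt group level in CPM (vertical axes, each from 0) of each gene in the 5 groups, 1 bar per group with no error bar because the tables hold no value per library. Cdkn1a runs from 379 CPM in KO_VILIhigh to 27.8 CPM in WT_noVILI, while Ccng1 stays between 95.4 and 136 CPM.

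Ventilation of wild type lungs was accompanied by higher levels of most of these genes. In the authors' deposited table for WT_VILI against WT_noVILI, 7 of the 10 were called higher at an edgeR adjusted p of 0.05 and none lower, also none lower at an unadjusted p of 0.05. Of all genes listed, 9.09 percent were called in either direction. Among genes averaging 3 or more on the log2 CPM scale, where all 10 lie, 7.86 percent were called higher and 6.89 percent lower. The median log2 fold change of the 10 was 1.12, against 0 for all genes. The 10 genes were chosen with earlier results of these data known, so these shares are no independent test of them. The authors' deposited table also called 10 of 11 neutrophil markers higher, with a summed level of 663 CPM in WT_VILI against 174 CPM in WT_noVILI and Elane under 0.5 CPM in every group. It called 3 of 6 red blood cell markers lower, with 541 CPM in WT_VILI against 2246 CPM in WT_noVILI. Also called lower were 3 of 6 B cell markers (96.8 CPM in WT_VILI against 155 CPM in WT_noVILI), 3 of 8 ciliated cell markers (221 CPM against 342 CPM) and 3 of 10 endothelial markers (4312 CPM against 4721 CPM). The part of these lists in the results was not tested.

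In knockout lungs the response was derived by adding deposited fold changes, with an approximate normal test adjusted over all genes tested. In KO_VILIhigh against KO_noVILI, 7 of 9 genes tested were called higher and none lower, against 2.45 and 1.42 percent of all genes tested. In KO_VILIlow against KO_noVILI, 5 of 9 were called higher and none lower, against 2.22 and 1.31 percent. No gene of the 9 tested was lower at an unadjusted p of 0.05 by this normal test in either contrast. Neutrophil markers summed to 1216 CPM in KO_VILIhigh and 855 CPM in KO_VILIlow, against 179 CPM in KO_noVILI. Cardiac muscle markers summed to 848 and 1229 CPM in KO_VILIhigh and KO_VILIlow, against 301 CPM in KO_noVILI, and red blood cell markers to 1859 and 2018 CPM, against 3257 CPM. Their part in the knockout response was not tested. Gadd45a could not be tested here, because the authors' deposited table gives its fold change in KO_noVILI against WT_noVILI as exactly 0 with a p of 1. A fold change of exactly 0 was given there for 56 of 11154 genes averaging 3 or more on the log2 CPM scale, Gadd45a among them. Its levels in KO_noVILI are read with that limit.

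**Figure D2:**
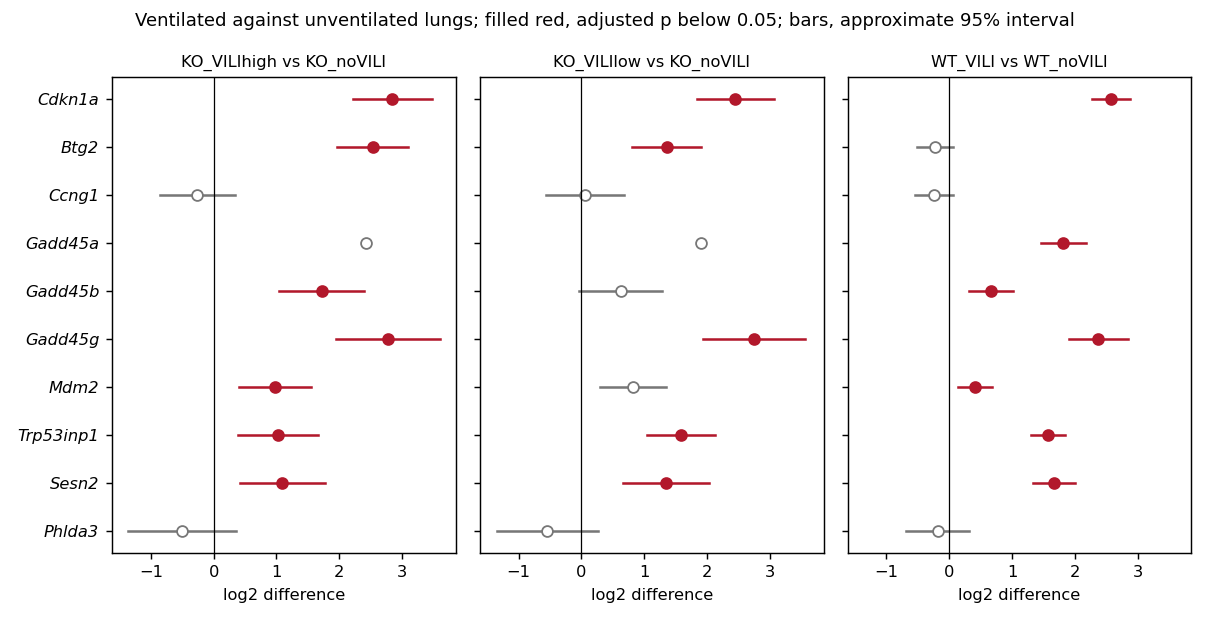
Log2 difference (horizontal axis) between ventilated and unventilated lungs for each gene in KO_VILIhigh, KO_VILIlow and WT_VILI, with filled red points for an adjusted p below 0.05 and bars for an approximate 95% interval. Gadd45a has no bar in the knockouts because it could not be tested; Btg2 is the gene with the widest gap between genotypes, at 2.53 and 1.36 in the knockouts and -0.23 in wild type.

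Differences between the genotypes were fewer. In the authors' deposited table for KO_VILIhigh against WT_VILI, 3 genes were called higher (Cdkn1a, Btg2 and Gadd45b) and 1 lower (Trp53inp1), where 1.56 percent of all genes were called, and 1.93 percent higher and 0.694 percent lower among genes averaging 3 or more on the log2 CPM scale. For KO_VILIlow against WT_VILI, only Cdkn1a was called, where 0.973 percent of all genes were called, and 0.965 percent higher and 0.377 percent lower among those genes. For KO_noVILI against WT_noVILI, Cdkn1a was called higher and Btg2 lower, where 3.36 percent of all genes were called, and 2.09 percent higher and 2.87 percent lower among those genes. Both ventilated knockout comparisons share the WT_VILI libraries. Between both ventilated knockout groups, Btg2 alone was called, higher in KO_VILIhigh than in KO_VILIlow, where the approximate test called 0.15 percent of genes higher and 0.0158 percent lower.

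**Figure D3:**
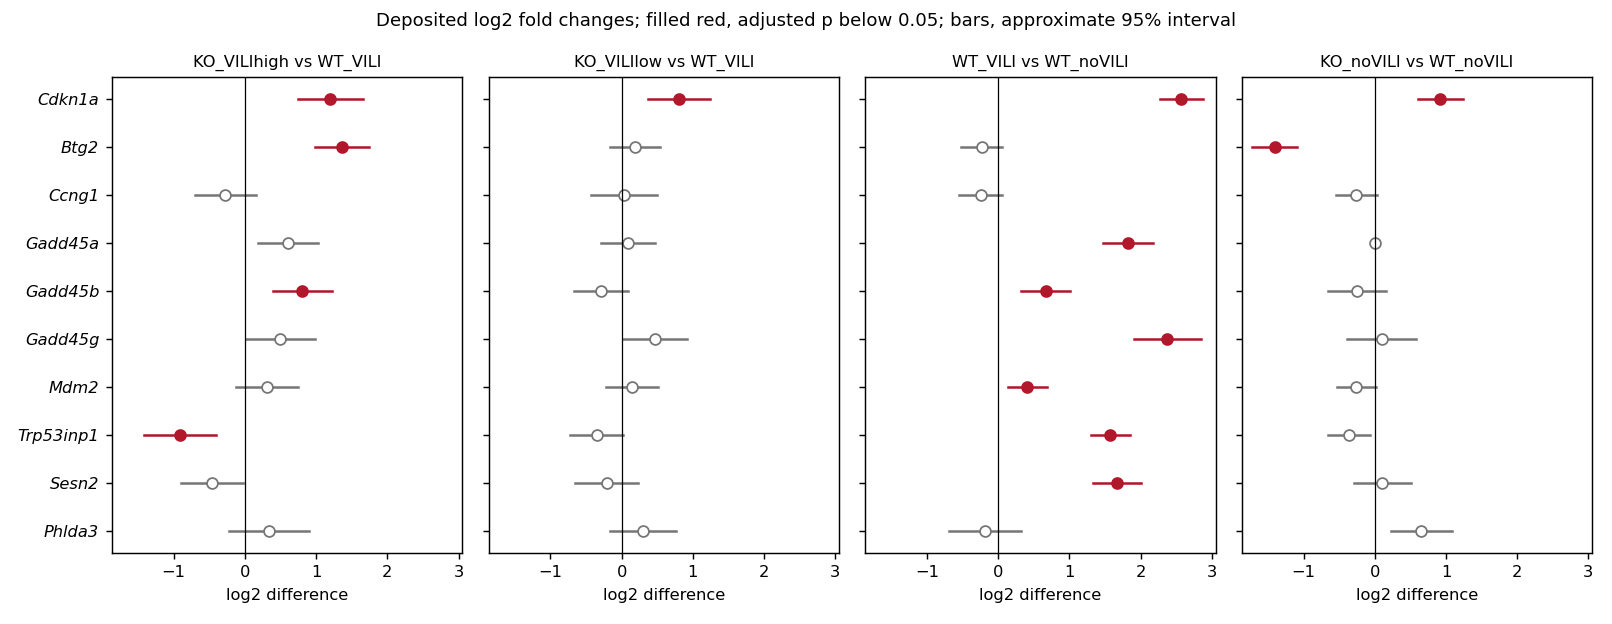
Log2 fold change (horizontal axis) of each gene in the authors' 4 deposited tables, with filled red points for an adjusted p below 0.05 and bars for an approximate 95% interval recovered from the deposited p. Cdkn1a is filled in all 4 panels, and Ccng1 and Phlda3 in none.

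Several cell marker lists differed with the genotype too. Of all genes, 3.36 percent were called in KO_noVILI, 0.973 percent in KO_VILIlow and 1.56 percent in KO_VILIhigh. The authors' deposited tables put 6 of 6 B cell markers lower in KO_noVILI (summed level 53.7 CPM, against 155 CPM in WT_noVILI) and 5 of 6 lower in KO_VILIlow (34.8 CPM, against 96.8 CPM in WT_VILI). In KO_VILIhigh edgeR called none of them, and none had an unadjusted p below 0.05, at a summed 104 CPM. Of 10 cardiac muscle markers, 8 were called lower in KO_noVILI (301 CPM, against 758 CPM in WT_noVILI), 9 higher in KO_VILIlow (1229 CPM, against 494 CPM in WT_VILI) and 2 higher in KO_VILIhigh (848 CPM). KO_VILIhigh also had 2 of 11 neutrophil markers called higher (1216 CPM, against 663 CPM in WT_VILI) and 3 of 6 red blood cell markers (1859 CPM, against 541 CPM). KO_VILIlow had 1 neutrophil marker (855 CPM) and 1 red blood cell marker (2018 CPM) called higher than in WT_VILI. Of 8 ciliated cell markers, 3 were called lower in KO_noVILI (237 CPM, against 342 CPM in WT_noVILI). In KO_VILIlow 2 of them were called lower (162 CPM, against 221 CPM in WT_VILI), and in KO_VILIhigh none. Of 8 alveolar macrophage markers, 2 were called higher in KO_VILIhigh (468 CPM, against 286 CPM in WT_VILI) and 1 in KO_VILIlow (486 CPM). In KO_noVILI 1 was called higher and 1 lower. Not every call of every list is given here. The part of these lists in the results was not tested.

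Cdkn1a encodes the cyclin-dependent kinase inhibitor that carries out much of the p53 growth arrest. Its rebuilt level was 379 CPM in KO_VILIhigh, 288 CPM in KO_VILIlow, 165 CPM in WT_VILI, 52.5 CPM in KO_noVILI and 27.8 CPM in WT_noVILI. Ventilated groups stood above unventilated ones, and within each condition the knockouts stood above wild type. In the authors' deposited table the log2 fold change after ventilation of wild type lungs was 2.57 (approximate SE 0.155, edgeR adjusted p = 1.99e-58), the tenth smallest p of that table. The derived response was 2.85 in KO_VILIhigh (approximate 95% interval 2.22 to 3.48, adjusted p = 4.92e-16 by the normal test) and 2.45 in KO_VILIlow (1.84 to 3.07, adjusted p = 3.06e-12).

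Cdkn1a was called higher in the knockout both with and without ventilation. The log2 fold change in the authors' deposited tables was 1.20 in KO_VILIhigh (approximate SE 0.234, edgeR adjusted p = 6.58e-05), 0.80 in KO_VILIlow (0.222, adjusted p = 0.0358) and 0.92 in KO_noVILI (0.159, adjusted p = 1.95e-06). The difference with ventilation minus that without was 0.28 for KO_VILIhigh, with an approximate 95% interval of -0.28 to 0.83, and -0.12 for KO_VILIlow, with -0.65 to 0.42. Neither passed (adjusted p = 0.948 and 1 by the normal test), and the intervals leave room for a difference in either direction. KO_VILIhigh and KO_VILIlow differed by 0.40 (-0.24 to 1.03), which did not pass either (adjusted p = 1).

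Btg2 encodes an antiproliferative protein that recruits the CCR4-NOT deadenylase to messenger RNA. It stood at 1064 CPM in KO_VILIhigh, 472 CPM in KO_VILIlow, 414 CPM in WT_VILI, 184 CPM in KO_noVILI and 486 CPM in WT_noVILI. KO_noVILI was the low group and KO_VILIhigh the high one, with the other 3 near each other. Btg2 was called lower by edgeR in the authors' deposited tables in KO_noVILI than in WT_noVILI, with a log2 fold change of -1.40 (approximate SE 0.162, adjusted p = 4.6e-15), and higher in KO_VILIhigh than in WT_VILI, at 1.36 (0.192, adjusted p = 8.89e-10). It did not pass in KO_VILIlow against WT_VILI, at 0.19 (adjusted p = 1), nor in WT_VILI against WT_noVILI, at -0.23 (adjusted p = 0.453).

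The genotype difference in Btg2 differed between ventilated and unventilated lungs, where ventilation and sex cannot be told apart. With minus without ventilation it came to 2.77 for KO_VILIhigh (approximate 95% interval 2.27 to 3.26, adjusted p = 5.32e-24 by the normal test) and 1.59 for KO_VILIlow (1.12 to 2.07, adjusted p = 4e-08). Of the 9 genes tested for this in each class, 2 were called for KO_VILIhigh, Btg2 and Gadd45b, where 1.19 percent of genes were called higher and 0.383 percent lower. For KO_VILIlow Btg2 was the only one called, where 0.932 percent were called higher and 0.237 percent lower. Both differences use the same KO_noVILI comparison. KO_VILIhigh exceeded KO_VILIlow by 1.17 (0.66 to 1.69, adjusted p = 0.0118), and within the knockouts the ventilated lungs exceeded the unventilated ones by 2.53 (adjusted p = 1.13e-15) and 1.36 (adjusted p = 0.000143) in KO_VILIhigh and KO_VILIlow.

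Ccng1 encodes cyclin G1, a p53 target that brings the phosphatase PP2A to Mdm2. It was at 95.4 CPM in KO_VILIhigh, 118 CPM in KO_VILIlow, 115 CPM in WT_VILI, 114 CPM in KO_noVILI and 136 CPM in WT_noVILI. The groups lay close together. Its log2 fold changes in the authors' deposited tables ran from -0.27 in KO_VILIhigh against WT_VILI to 0.04 in KO_VILIlow against WT_VILI, and edgeR called none of them, with adjusted p between 0.468 and 1. The approximate 95% interval after ventilation of wild type lungs was -0.54 to 0.06. Its window holds a decamer, as do those of Cdkn1a, Gadd45a and Mdm2, which were called higher after ventilation of wild type lungs. Gadd45b, Gadd45g and Sesn2, whose windows hold none, were called higher there too. Btg2 and Phlda3, also without a decamer, were not called there. Trp53inp1, called higher there, had no window to search.

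The GADD45 proteins are small acidic proteins that bind PCNA and cyclin-dependent kinases and activate the kinase MAP3K4 upstream of p38 and JNK. Gadd45a, the p53 target among them, stood at 75.6 CPM in KO_VILIhigh, 53 CPM in KO_VILIlow, 49.7 CPM in WT_VILI and 14.1 CPM in both KO_noVILI and WT_noVILI. Its log2 fold change after ventilation of wild type lungs was 1.82 in the authors' deposited table (approximate SE 0.181, edgeR adjusted p = 2.6e-21). It was 0.60 in KO_VILIhigh against WT_VILI (0.215, adjusted p = 0.173) and 0.09 in KO_VILIlow (0.192, adjusted p = 1), neither of which passed. The derived differences from KO_noVILI were 2.42 in KO_VILIhigh and 1.91 in KO_VILIlow, without a test for the reason given above.

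Gadd45g is often induced by cytokines. Its level was 92.2 CPM in KO_VILIhigh, 90.4 CPM in KO_VILIlow, 65.3 CPM in WT_VILI, 13.4 CPM in KO_noVILI and 12.6 CPM in WT_noVILI, so the ventilated groups were all above the unventilated ones. Ventilation of wild type lungs came with a log2 fold change of 2.38 in the authors' deposited table (approximate SE 0.24, edgeR adjusted p = 1.05e-20). The derived response was 2.78 in KO_VILIhigh (1.95 to 3.61, adjusted p = 9.94e-09) and 2.75 in KO_VILIlow (1.94 to 3.56, adjusted p = 7.72e-09). Against WT_VILI it stood at 0.50 in KO_VILIhigh (edgeR adjusted p = 0.575) and 0.47 in KO_VILIlow (adjusted p = 0.818) in the authors' deposited tables, and neither passed.

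Gadd45b is a target of NF-kB and TGF-beta signalling. It was at 127 CPM in KO_VILIhigh, 59.2 CPM in KO_VILIlow, 72.5 CPM in WT_VILI, 38.4 CPM in KO_noVILI and 45.7 CPM in WT_noVILI. KO_VILIhigh stood highest, and KO_VILIlow lay between WT_VILI and the unventilated groups. Its log2 fold change in the authors' deposited tables was 0.67 after ventilation of wild type lungs (approximate SE 0.178, edgeR adjusted p = 0.0038), 0.81 in KO_VILIhigh against WT_VILI (0.21, adjusted p = 0.0117) and -0.29 in KO_VILIlow against WT_VILI (0.193, adjusted p = 1). The derived response was 1.72 in KO_VILIhigh (1.05 to 2.40, adjusted p = 5.24e-05) and 0.63 in KO_VILIlow (-0.03 to 1.28, adjusted p = 0.552).

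Gadd45b was 2.14-fold higher in KO_VILIhigh than in KO_VILIlow, with an approximate 95% interval of 0.54 to 1.66 on the log2 scale. This did not pass the threshold (adjusted p = 0.065 by the normal test). The genotype difference with minus without ventilation was 1.06 for KO_VILIhigh (0.47 to 1.64), which passed (adjusted p = 0.0306). For KO_VILIlow it was -0.04 (-0.60 to 0.52), which did not (adjusted p = 1).

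Mdm2 encodes the p53 ubiquitin ligase. It was at 128 CPM in KO_VILIhigh, 115 CPM in KO_VILIlow, 104 CPM in WT_VILI, 65.2 CPM in KO_noVILI and 78.2 CPM in WT_noVILI. All 3 ventilated groups lay above both unventilated groups. For wild type lungs the authors' deposited table put the log2 fold change after ventilation at 0.41 (approximate SE 0.138, edgeR adjusted p = 0.037). The derived response was 0.98 in KO_VILIhigh (0.40 to 1.56, adjusted p = 0.029 by the normal test) and 0.82 in KO_VILIlow (0.29 to 1.35, adjusted p = 0.0634). None of the genotype comparisons passed for Mdm2, at 0.31 in KO_VILIhigh, 0.15 in KO_VILIlow and -0.26 in KO_noVILI in the authors' deposited tables (edgeR adjusted p = 0.944, 1 and 0.452).

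Trp53inp1 encodes a stress protein that promotes p53 phosphorylation, cell death and autophagy. Its level was 236 CPM in KO_VILIhigh, 348 CPM in KO_VILIlow, 444 CPM in WT_VILI, 116 CPM in KO_noVILI and 149 CPM in WT_noVILI. The ventilated groups were above the unventilated ones, but among them the order was the reverse of that of Cdkn1a. The log2 fold change in the authors' deposited tables was 1.57 after ventilation of wild type lungs (approximate SE 0.138, edgeR adjusted p = 2.91e-27) and -0.91 in KO_VILIhigh against WT_VILI (0.255, adjusted p = 0.0262). It was -0.35 in KO_VILIlow against WT_VILI (0.188, adjusted p = 1) and -0.36 in KO_noVILI against WT_noVILI (0.148, adjusted p = 0.2), and neither passed.

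Trp53inp1 was higher in ventilated than in unventilated knockouts, by 1.03 in KO_VILIhigh (0.39 to 1.66, adjusted p = 0.0446) and by 1.59 in KO_VILIlow (1.05 to 2.13, adjusted p = 1.67e-06). The genotype difference with minus without ventilation did not pass, at -0.55 for KO_VILIhigh (-1.13 to 0.03, adjusted p = 0.6) and 0.01 for KO_VILIlow (-0.46 to 0.48, adjusted p = 1).

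Sesn2 encodes sestrin 2, a leucine sensor that restrains mTORC1 and limits oxidative damage. It stood at 38.2 CPM in KO_VILIhigh, 45.7 CPM in KO_VILIlow, 52.8 CPM in WT_VILI, 17.9 CPM in KO_noVILI and 16.6 CPM in WT_noVILI. As for Trp53inp1, WT_VILI was the highest group. After ventilation of wild type lungs the log2 fold change was 1.67 in the authors' deposited table (approximate SE 0.173, edgeR adjusted p = 1.44e-19). The derived response was 1.09 in KO_VILIhigh (0.41 to 1.78, adjusted p = 0.0439) and 1.35 in KO_VILIlow (0.67 to 2.04, adjusted p = 0.00509). Against WT_VILI it stood at -0.47 in KO_VILIhigh and -0.21 in KO_VILIlow in the authors' deposited tables, and edgeR called neither (adjusted p = 0.502 and 1).

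Phlda3 encodes a p53-induced inhibitor of the kinase Akt. It was at 22.6 CPM in KO_VILIhigh, 22.1 CPM in KO_VILIlow, 17.9 CPM in WT_VILI, 32.1 CPM in KO_noVILI and 20.4 CPM in WT_noVILI. KO_noVILI was the highest group, with a log2 fold change against WT_noVILI of 0.66 in the authors' deposited table (approximate SE 0.218, edgeR adjusted p = 0.0676). This did not pass over the whole table and passed when adjusted over genes averaging 1 or more on the log2 CPM scale (adjusted p = 0.0461). After ventilation of wild type lungs it was at -0.19 in the authors' deposited table (approximate 95% interval -0.69 to 0.32, edgeR adjusted p = 0.992).

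In the authors' deposited table for WT_VILI against WT_noVILI, edgeR called 11 of 30 other p53 target genes higher and 2 lower, where 9.09 percent of all genes were called, with a median log2 fold change of 0.25 against 0 for all genes. The leading ones by p were Sfn, the cell cycle checkpoint protein 14-3-3 sigma, at 4.13 (adjusted p = 2.88e-55), the kinase Plk3 at 2.21 (adjusted p = 2.77e-35) and the stress cytokine Gdf15 at 3.68 (adjusted p = 6.8e-20). The same table put the commonly used targets Bax at 0.18, Zmat3 at 0.06, Ddb2 at -0.36 and Eda2r at -0.83, none of which passed. It called others higher, among them Pmaip1 at 1.49, Fas at 1.07, Tnfrsf10b at 1.04, Bbc3 at 0.81 and Aen at 0.65. Bax and the genes named after it were picked from the list after their values were seen.

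In KO_VILIhigh against WT_VILI, 3 of the 30 were called higher by edgeR in the authors' deposited table and 1 lower, where 1.56 percent of all genes were called, with a median of 0.01. Sfn was at 1.73 (adjusted p = 3.07e-13), Plk3 at 1.00 (adjusted p = 0.000222) and Gdf15 at 1.23 (adjusted p = 0.00105). The lower one was Sesn1, a paralog of Sesn2, at -0.97. Sesn1 was also the 1 gene of the list called in KO_VILIlow against WT_VILI, at -0.74 (adjusted p = 0.0428), in the authors' deposited table, where 0.973 percent of all genes were called, while none was called higher by edgeR and 4 were higher at an unadjusted p of 0.05.

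In KO_noVILI against WT_noVILI, 6 of the 30 were called higher and none lower by edgeR in the authors' deposited table, where 3.36 percent of all genes were called, with 3 lower at an unadjusted p of 0.05 and a median of 0.09. Pmaip1, the death-promoting protein Noxa, was at 1.11 (adjusted p = 5.68e-07), Sfn at 1.25 (adjusted p = 0.00896) and the death receptor Tnfrsf10b at 0.72 (adjusted p = 0.0127). All 3 were also called higher after ventilation of wild type lungs.

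**Figure D4:**
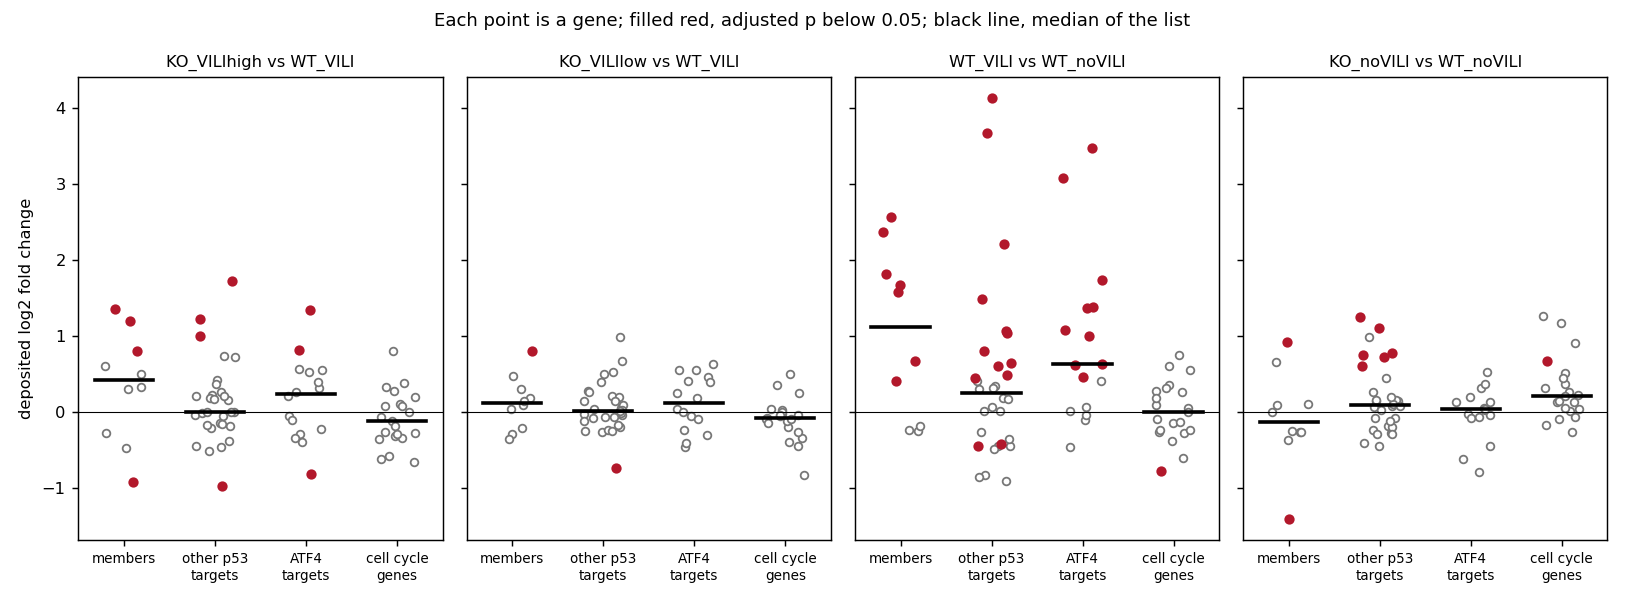
Log2 fold change (vertical axis) of every measured gene of 4 lists in the authors' 4 deposited tables, with filled red points for an adjusted p below 0.05 and a black line at the list's median. After ventilation of wild type lungs the median was 1.12 for the 10 genes, 0.25 for other p53 targets, 0.63 for Atf4 with ATF4 targets and 0 for other cell cycle genes.

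Trp53, which encodes p53, was at 31.3 CPM in KO_VILIhigh, 26.8 CPM in KO_VILIlow, 29.6 CPM in WT_VILI, 39.3 CPM in KO_noVILI and 38.3 CPM in WT_noVILI. The authors' deposited table put its log2 fold change after ventilation of wild type lungs at -0.37 (approximate SE 0.167, edgeR adjusted p = 0.178). Of 18 genes of the p53 family and its regulators, none was called higher by edgeR after ventilation of wild type lungs in the authors' deposited table, 2 were higher and 5 lower at an unadjusted p of 0.05, and 2 were called lower. That share of the list is 11.1 percent, near the 9.09 percent of all genes. The genes called lower were the family member Trp73 at -1.24 (adjusted p = 7.37e-05) and the DNA damage kinase Atm at -0.51 (adjusted p = 0.0188). In the other 3 deposited tables edgeR called none of the 18, with 3 lower at an unadjusted p of 0.05 in KO_noVILI against WT_noVILI.

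Atf4 and ATF4 target genes, the list to which Sesn2 is also linked, together numbered 16. After ventilation of wild type lungs the authors' deposited table called 10 higher and 0 lower (edgeR), where 9.09 percent of all genes were called. The genes called include Atf4 itself, at 0.63. None of the list was lower at an unadjusted p of 0.05. Atf3 was at 3.08, the cystine transporter Slc7a11 at 3.48 and Nupr1 at 1.08 (adjusted p = 1.01e-36, 3.43e-36 and 2.93e-10). In KO_VILIhigh against WT_VILI, where 1.56 percent of all genes were called, the authors' deposited table called 2 higher and 1 lower, Atf3 at 1.35, Cebpb at 0.81 and the lipoprotein receptor Vldlr at -0.82 (edgeR adjusted p = 1.34e-07, 0.00721 and 0.0181). In KO_VILIlow against WT_VILI edgeR called none, with 3 higher and 1 lower at an unadjusted p of 0.05, for which no share of all genes is given. In KO_noVILI against WT_noVILI it called none either, with 1 higher and 2 lower.

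Of 21 other cell cycle genes (CDK inhibitors, cyclins, their kinases, the RB family, E2f1 and Pcna), 1 was called after ventilation of wild type lungs in the authors' deposited table, the inhibitor Cdkn1b, which fell by 0.77 (edgeR adjusted p = 8.48e-06), and the list's median was 0. That is 4.76 percent of the list, against 9.09 percent of all genes. In KO_noVILI against WT_noVILI 1 was called, Ccnd1, which encodes cyclin D1, at 0.67 (edgeR adjusted p = 0.000396), again 4.76 percent of the list, against 3.36 percent of all genes. There 5 genes were higher and 0 lower at an unadjusted p of 0.05, and the list's median was 0.21, against 0 for all genes. Neither ventilated knockout table had a call in this list by edgeR, with 1 gene higher at an unadjusted p of 0.05 in KO_VILIhigh and 0 in KO_VILIlow.

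Genes with the most similar pattern were ranked by Euclidean distance over the 4 log2 differences from WT_noVILI, among 10561 genes averaging 3 or more on the log2 CPM scale in all tables. Nearest to Cdkn1a were Srxn1 (distance 0.763), Tnfrsf12a (0.882) and Mt1 (0.954). For KO_VILIhigh, KO_VILIlow, WT_VILI and KO_noVILI in that order, Cdkn1a was at 3.77, 3.37, 2.57 and 0.92, and Srxn1 at 3.70, 3.21, 2.64 and 0.18. Nearest to Gadd45b were Cd83 (0.33), Hk3 (0.342) and Cxcl17 (0.389), and nearest to Mdm2 were Acot10 (0.0968), Pfkfb3 (0.101) and Zbtb10 (0.11). These are distances over 5 groups with shared comparison libraries and carry no test.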

How the data were processed

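Whole-lung RNA-seq was deposited as 4 tables comparing groups, each with 21590 genes. The submitters' processing notes name Bowtie 1.1.2, the mouse build mm9, R 3.0.1 and edgeR; counting, gene filter and edgeR settings are not given in the sources used here. Per the file headers, the deposited columns are logFC and logCPM, read here as log2 fold change and log2 mean CPM, and an edgeR p-value with its FDR, the adjusted p. No value per library is given, so p-values rest on the authors' fit, and whether the 2 libraries of a group are separate animals is not stated, so the spread they measure may be technical.

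The 10 genes, the lists and the tests were chosen with earlier results of these data known. Calls used the deposited adjusted p at 0.05. Counts at an unadjusted p of 0.05 are given without the share of all genes at that threshold, so they cannot be set against a background. Although the labels list WT_noVILI beside every table, both ventilated knockout tables were read against WT_VILI: over 10562 genes their rebuilt comparison level differed from WT_VILI by a median of 0.045 and 0.0491 log2 (KO_VILIhigh and KO_VILIlow), and from WT_noVILI by 0.203 and 0.205. Only 58.9 and 51.4 percent of genes lay within 0.05 log2 of WT_VILI, so the match is nearer than that to WT_noVILI but not exact. WT_noVILI rebuilt from the KO_noVILI and WT_VILI tables differed by a median of 0.00593 log2, with 99.3 percent of genes within 0.05. Derived contrasts and levels of the ventilated knockouts rest on this reading. Levels of both WT groups came from fold change and mean abundance in the WT_VILI table, and knockout levels from these and the deposited fold changes. An approximate SE was taken as the size of the log2 fold change over the normal quantile that matches its p. For 5 derived contrasts fold changes were added or subtracted, variances summed, and p-values adjusted (Benjamini-Hochberg) over genes averaging 1 or more on the log2 CPM scale. Where a shared group cancels the test is conservative; for the genotype difference with minus without ventilation it is not. Python 3.11.15, numpy 2.4.6, pandas 2.3.3 and scipy 1.17.1 were used.

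Named genes are the 10, Cldn4, Xist, Ddx3y and Trp53, up to 3 called genes of each list by smallest p, the 3 nearest genes to Cdkn1a, Gadd45b and Mdm2, and those said to be picked otherwise, among them Sesn1 in KO_VILIhigh. Trp53 and Sesn1 were added to a rule written earlier. All 106 genes of 6 pathway lists were measured; Sesn3 is in 2 of them. In gene models of GRCm38, Cdkn1a, Gadd45a and Sesn2 each overlap 1 other annotated gene, and whether counting used strand is not given in the sources used here. Alternatives tried were other thresholds, a minimum fold change, other adjustments, median centring and levels rebuilt per table. Some comparisons and lists of the series are not analysed here.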

Additional observations from a re-analysis of the deposited data

Results flagged for a closer look

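The genotype difference of Btg2 and Gadd45b differed between ventilated and unventilated lungs (approximate normal test, adjusted over all genes tested). Ventilation and sex cannot be told apart in this contrast. For Btg2 the genotype difference with minus without ventilation was 2.77 for KO_VILIhigh and 1.59 for KO_VILIlow on the log2 scale. The components in the authors' deposited tables were 1.36 and 0.19 with ventilation and -1.40 without, so most of the value for KO_VILIlow comes from the unventilated lungs. In those unventilated lungs B cell markers summed to 53.7 CPM in KO_noVILI against 155 CPM in WT_noVILI, and cardiac muscle markers to 301 CPM against 758 CPM. In KO_VILIhigh, KO_VILIlow and WT_VILI, B cell markers summed to 104, 34.8 and 96.8 CPM and cardiac muscle markers to 848, 1229 and 494 CPM. Their part in the Btg2 value was not tested. For Gadd45b the same difference was 1.06 for KO_VILIhigh, from 0.81 with ventilation and -0.25 without in the authors' deposited tables. No group cancels in this contrast, so its test is not conservative.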

How the results depend on the processing

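Of 80 results for single genes under other adjustments of p, 74 kept their call, 5 lost it and 1 gained it. Median centring moved the 40 log2 fold changes by at most 0.023 and turned no direction; p-values were not recomputed for it. The losses were all under Bonferroni adjustment: Gadd45b and Mdm2 after ventilation of wild type lungs, Cdkn1a in KO_VILIlow, and Gadd45b and Trp53inp1 in KO_VILIhigh. Phlda3 in KO_noVILI gained it (adjusted p = 0.0461). At an adjusted p of 0.01 the count of genes called was 0 for KO_VILIlow against WT_VILI, 2 for KO_VILIhigh against WT_VILI, 4 for KO_VILIhigh against KO_noVILI, 0 for KO_VILIhigh against KO_VILIlow and 1 for the genotype difference with minus without ventilation in KO_VILIhigh. At 0.1 it was 2 for KO_VILIhigh against KO_VILIlow. With a minimum log2 change of 1 it was 1 for KO_noVILI, 0 for KO_VILIlow and 2 for KO_VILIhigh, and under Bonferroni adjustment 0 for KO_VILIlow and 2 for KO_VILIhigh. For WT_VILI against WT_noVILI the count was 6 at 0.01, 5 with the minimum log2 change and 5 under Bonferroni adjustment. All of these follow from the stricter or looser rule itself, and the share of all genes under each rule is not given here. Levels rebuilt from each table on its own, an alternative chosen after seeing the data, differed by at most 9.6 percent. No paired analysis was possible because the tables hold no value per library, and for the same reason no replicate was left out and depth is unknown.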

Other observations

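Paralogs of the 10 genes were measured in 10 cases. After ventilation of wild type lungs 2 were called higher and 1 lower by edgeR in the authors' deposited table, where 9.09 percent of all genes were called in either direction. Phlda1, a relative of Phlda3, was at 1.62 (adjusted p = 6.73e-18), Trp53inp2 at 0.63 (adjusted p = 7.67e-05) and Ccng2 at -0.48 (adjusted p = 0.025). Phlda1 was also called in KO_VILIhigh against WT_VILI, at 1.41 (adjusted p = 1.23e-09), and in KO_noVILI against WT_noVILI, at 0.69 (adjusted p = 0.0129), in the authors' deposited tables. Its paralog Phlda3 was called in none of the 4.

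Kinases on the path from GADD45 proteins through MAP3K4 to p38 and JNK were measured in 12 cases. In the authors' deposited table for WT_VILI against WT_noVILI, edgeR called 2 higher and 2 lower, with a median of -0.13, where 9.09 percent of all genes were called. Map2k3, which activates p38, was at 0.79 (adjusted p = 4.31e-06), Mapk13 at 0.79 (adjusted p = 0.0405) and Map3k4 at -0.44 (adjusted p = 0.046). In KO_VILIlow against WT_VILI 1 was called, Mapk10 at 1.58 (adjusted p = 0.0341), in the authors' deposited table, where 0.973 percent of all genes were called. Mapk10 was at -0.80 in KO_noVILI against WT_noVILI and 0.58 in KO_VILIhigh against WT_VILI, and neither was called. In KO_VILIlow 9 of 10 cardiac muscle markers were also called higher and 0 lower. Their part in the Mapk10 value was not tested.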
